A study of Homo sapiens with 12 samples.

Results

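Levels of 10 genes that govern the G1 phase of the cell cycle were described in 12 human cell line libraries: the INK4 inhibitors CDKN2A, CDKN2B and CDKN2C, the kinases CDK4 and CDK6, the D-type cyclins CCND1, CCND2 and CCND3, and the pocket proteins RB1 and RBL1. The genes were taken by symbol, and all 10 were found among 61806 gene IDs. They were chosen by their role in G1 with results of these libraries known, among them the level of CDKN2A in both lines, so differences in level between the lines are a description. RNA-seq counts were available for 4 groups of 3 libraries. In cells labelled Hep3B, a tetracycline-inducible vector carried either a control shRNA or an shRNA against CD146, an adhesion molecule of the immunoglobulin family encoded by MCAM. In HepG2, a line from a human liver tumour, cells received either the pLVX vector or a vector with CD146. The sources used here give no duration of induction, no selection of clones and no separate cultures for the replicates. The p-values hence cover the spread among these libraries alone, and part or all of it could be technical.

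In G1, D-type cyclins bind CDK4 or CDK6, and the active kinases phosphorylate RB1 and its relatives RBL1 (p107) and RBL2 (p130), which then release E2F factors to transcribe genes of S phase. INK4 proteins bind CDK4 and CDK6 and keep D-type cyclins from activating them. CDKN2A encodes p16 from one start and p14ARF, in another reading frame, from a start further upstream, while CDKN2B encodes p15 and CDKN2C encodes p18. In liver tumours, loss or silencing of p16 and gain of CCND1 are well-known lesions of this pathway.

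The starts of CDKN2A and CDKN2B are shown because their transcripts separated the lines more than those of the other 8 genes. The 250 bases before each start are from RefSeq (GRCh38.p14), on the minus strand, read 5′ to 3′, with each CG dinucleotide in capitals.
CDKN2A start of p14ARF, chr9:21995325-21995574: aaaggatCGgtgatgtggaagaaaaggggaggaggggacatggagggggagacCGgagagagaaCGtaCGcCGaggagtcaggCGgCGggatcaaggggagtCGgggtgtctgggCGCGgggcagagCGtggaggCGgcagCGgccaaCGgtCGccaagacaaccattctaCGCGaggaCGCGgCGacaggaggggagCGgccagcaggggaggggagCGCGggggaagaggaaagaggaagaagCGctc
CDKN2A start of p16, chr9:21974858-21975107: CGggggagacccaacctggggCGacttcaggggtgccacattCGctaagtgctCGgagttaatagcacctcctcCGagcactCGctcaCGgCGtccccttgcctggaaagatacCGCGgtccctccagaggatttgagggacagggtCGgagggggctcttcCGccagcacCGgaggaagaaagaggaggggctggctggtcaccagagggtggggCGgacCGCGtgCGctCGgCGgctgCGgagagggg
CDKN2B start, chr9:22009306-22009555: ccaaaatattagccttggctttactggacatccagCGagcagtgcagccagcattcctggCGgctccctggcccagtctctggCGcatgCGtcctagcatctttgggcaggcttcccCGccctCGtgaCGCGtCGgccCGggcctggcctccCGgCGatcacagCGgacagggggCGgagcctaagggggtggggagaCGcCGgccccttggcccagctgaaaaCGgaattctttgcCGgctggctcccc
The p14ARF window held 24 CG dinucleotides, the p16 window 20 and the CDKN2B window 18. The median over 35116 promoter windows of this length was 11, and 23.7%, 32.4% and 36.8% of them held at least as many as these 3 windows. Methylation was not measured in these libraries.

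RBL1 is shown because it is known as an E2F-regulated gene and was called lower with CD146 in HepG2. That call held in 7 of 14 alternatives, described below. Capitals mark matches to the E2F words TTTGGCGC, TTTCCCGC, TTTCGCGC and TTTGCCGC, searched on both strands of the 250 bases before the start.
RBL1 start, minus strand, chr20:37095998-37096247: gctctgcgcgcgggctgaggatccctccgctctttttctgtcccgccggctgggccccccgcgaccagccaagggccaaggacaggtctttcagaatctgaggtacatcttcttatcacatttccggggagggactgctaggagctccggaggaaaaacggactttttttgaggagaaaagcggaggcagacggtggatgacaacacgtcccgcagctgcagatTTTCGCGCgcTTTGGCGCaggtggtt
TTTCGCGC began 26 bases and TTTGGCGC 16 bases before the start, with no overlap between them. One of the words was found in 2.79% of the promoter windows. Entries were found for 8 of the 10 genes. The entries of RB1, CDK4 and CCND3 lie inside the gene spans given here, so the outermost starts of these 3 genes were not searched. Of the windows searched, the one of RBL1 held a match. CCND1 and CCND2 had no entry.

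The labels were checked first. MCAM stood at 114.9 ± 3.5 CPM (counts scaled to library size; SD, n = 3) with control shRNA and 24.4 ± 2.4 with CD146 shRNA, and at 23.4 ± 0.4 with pLVX and 1932 ± 31 with the CD146 vector. Hep3B is known as a liver tumour line that makes hepatocyte proteins and lacks functional RB protein. The libraries labelled Hep3B went against this label: the FPKM (fragments scaled to gene length and library size) of 14 hepatocyte markers summed to between 0.78 and 1.07 with control shRNA, against 15853 to 16296 with pLVX and 14208 to 14315 with CD146 in HepG2. The sum was between 1.22 and 17.6 with CD146 shRNA, and its highest library, replicate 3, held 298 counts of ALB. Endothelial markers (5 genes) summed to 0.37 to 0.45 FPKM with control shRNA and 3.63 to 3.81 with CD146 shRNA, and fibroblast markers (6 genes) to 6.60 to 7.61 and 10.6 to 13.1. Fetal liver markers (3 genes) summed to 0.02 to 0.08 FPKM with control shRNA, 0.04 to 2.57 with CD146 shRNA, 2695 to 2797 with pLVX and 2091 to 2150 with CD146. In HepG2, cholangiocyte markers (4 genes) summed to 117 to 123 FPKM with pLVX and 170 to 175 with CD146. Leukocyte markers (5 genes) summed to 739 to 777 and 575 to 614, but 2 of the 5 reached a mean of 1 FPKM in each HepG2 group. Of the endothelial markers, 0 of 5 reached it with control shRNA and 1 with CD146 shRNA, and of the fibroblast markers 1 and 2 of 6. The endothelial, fibroblast and leukocyte sums thus rest on few genes of each list. In each HepG2 group, 14 of 14 hepatocyte, 3 of 3 fetal liver and 3 of 4 cholangiocyte markers reached this mean. Such sums alone do not show the presence of a cell type. The part of these markers in the results below was not tested. In bulk libraries, fewer cells of a type and less RNA per cell cannot be told apart.

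CDKN2A and CDKN2B had the widest range between the lines. CDKN2A (chr9:21967753-21995301, minus strand, GRCh38) had 14.51, 13.53 and 11.54 FPKM in the control shRNA libraries and 12.25, 11.01 and 11.07 with CD146 shRNA. In HepG2 it had 0.20, 0.23 and 0.18 FPKM with pLVX and 0.24, 0.29 and 0.15 with CD146, from 10 to 15 counts per library. Both labelled Hep3B groups lay above both HepG2 groups without overlap, while the groups within each line overlapped. Between the control groups the mean FPKM differed 64.9-fold. Levels between the lines were not tested, and the counts do not separate p16 from p14ARF transcripts.

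CDKN2B (chr9:22002903-22009363, minus strand) followed the same order at a lower level. It had 3.13, 3.23 and 3.02 FPKM with control shRNA, 2.58, 2.89 and 2.21 with CD146 shRNA, 0.10, 0.06 and 0.11 with pLVX, and 0.18, 0.19 and 0.21 with CD146. In HepG2 these values rest on 4 to 6 counts per library with pLVX and 10 to 14 with CD146, close to the floor of 3 counts used here for detection. CDKN2C (chr1:50960745-50974633, plus strand) was present in every library, at 10.2 ± 0.7 FPKM with control shRNA and 4.96 ± 0.29 with pLVX (SD, n = 3). It made up 38.5% ± 3.2 of the summed FPKM of these 3 INK4 genes with control shRNA and 94.4% ± 0.4 with pLVX. CDKN2D, which encodes the INK4 protein p19 and is not among the 10 genes, had 0.987 ± 0.317 FPKM with control shRNA and 2.71 ± 0.68 with pLVX. With CDKN2D in the sum, the share of CDKN2C was 37.1% ± 3.4 and 62.5% ± 6.5.

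**Figure D1:**
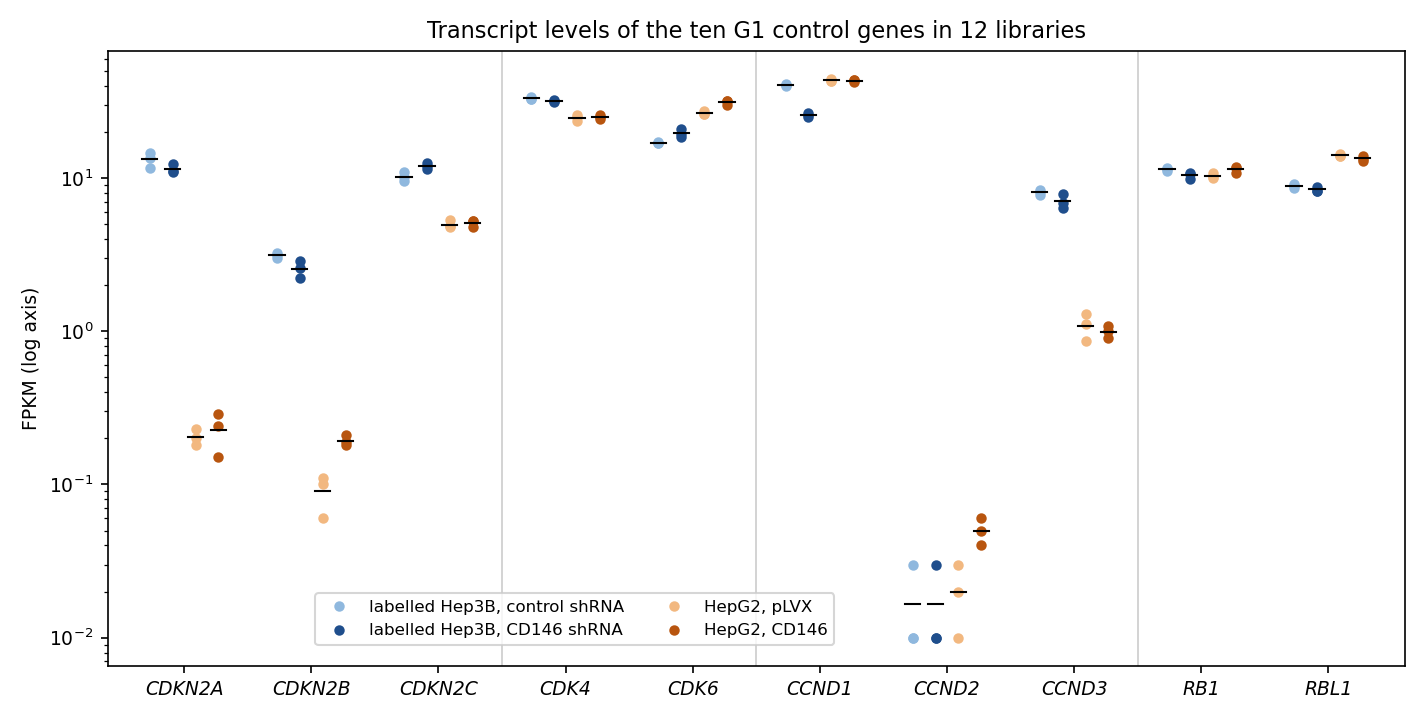
FPKM (log axis) of the 10 genes in the 12 libraries, as 1 point per library with the group mean as a bar; vertical lines separate INK4 inhibitors, kinases, D-type cyclins and pocket proteins. CDKN2A, CDKN2B and CCND3 lie lower in both HepG2 groups than in both groups labelled Hep3B, and CCND2 stays at or below 0.06 FPKM in every library.

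The genes next to CDKN2A were read beside it. MTAP, a methionine salvage enzyme gene that is often deleted together with CDKN2A, had 5.50 FPKM with control shRNA and 5.05 with pLVX. CDKN2B-AS1 (ANRIL), a noncoding RNA that starts within CDKN2A, near its p14ARF start, and runs on the opposite strand across CDKN2B, had 172 to 442 counts in the 6 libraries labelled Hep3B and 1 to 5 in the 6 HepG2 libraries. DMRTA1, on the other side of CDKN2B, had 23 to 44 counts in the former and 1 to 10 in the latter. MIR31HG, on the far side of MTAP, was low in both lines, with 6 to 18 counts in the libraries labelled Hep3B and 0 or 1 in HepG2. Transcripts of CDKN2A, CDKN2B, CDKN2B-AS1, DMRTA1 and MIR31HG were thus scarce in HepG2, and those of MTAP, which lies between MIR31HG and CDKN2A, were not. CDKN2B-AS1 and CDKN2A share exonic positions on opposite strands, and since the strand setting of the counting was not given, reads over these positions cannot be assigned with certainty.

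**Figure D2:**
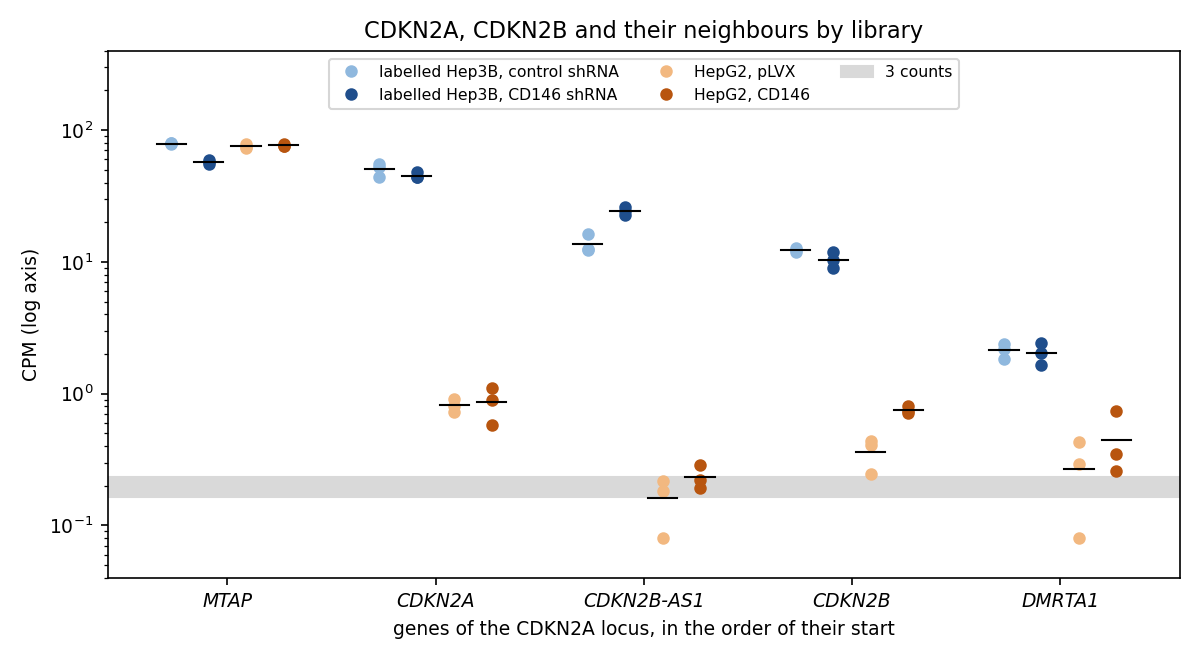
CPM (log axis) of CDKN2A, CDKN2B and 3 neighbouring genes, as 1 point per library with the group mean as a bar; the grey band is the CPM worth of 3 counts over the libraries (0.165 to 0.235). The HepG2 points of MTAP lie near those labelled Hep3B, and the HepG2 points of the other 4 genes lie lower. Those of CDKN2A (0.58 to 1.11 CPM) and CDKN2B (0.24 to 0.81) lie above the band, and those of CDKN2B-AS1 and DMRTA1 reach below it (0.081 each).

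The kinases were abundant in both lines, with a different balance. CDK4 (chr12:57747727-57756013, minus strand) had 33.2 ± 0.6 FPKM with control shRNA and 24.7 ± 1.0 with pLVX. CDK6 (chr7:92604921-92836594, minus strand) had 17.0 ± 0.2 and 26.6 ± 0.7 FPKM. Their FPKM sum differed little, at 50.2 ± 0.5 with control shRNA and 51.3 ± 0.4 with pLVX. CDK6 made up 33.9% ± 0.6 of it in the former and 51.8% ± 1.6 in the latter. The likeness of the sums depends on scaling: with TMM factors over all 12 libraries, CDK4 had 92.6 and 86.0 CPM and CDK6 188 and 366. Exons of CDK4 overlap TSPAN31 and those of CDK6 overlap CDK6-AS1, so a part of these counts is uncertain.

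CCND1 (chr11:69641087-69654474, plus strand) was the leading D-type cyclin in all 4 groups. It had 40.50, 40.78 and 39.53 FPKM with control shRNA, 24.91, 26.68 and 25.74 with CD146 shRNA, 42.72, 44.39 and 42.73 with pLVX, and 42.54, 43.51 and 43.23 with CD146. The CD146 shRNA libraries stood below the other 9 without overlap. CCND3 (chr6:41934933-42050357, minus strand) had 8.07 ± 0.32 FPKM with control shRNA and 1.09 ± 0.22 with pLVX, and the libraries of the lines did not overlap. CCND2 (chr12:4273772-4305350, plus strand) had between 1 and 8 counts in every library. CCND1 thus made up 83.3% ± 0.6 of the summed D-type cyclin FPKM with control shRNA and 97.5% ± 0.4 with pLVX.

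RB1 (chr13:48303726-48599436, plus strand) was transcribed at a like level in all libraries. It had 11.37, 11.10 and 11.58 FPKM with control shRNA, 10.72, 9.85 and 10.67 with CD146 shRNA, 10.18, 10.75 and 10.02 with pLVX, and 11.80, 11.53 and 10.74 with CD146. Transcript counts do not say whether a functional protein is made. RBL1 (chr20:36996349-37095995, minus strand) had 8.89 ± 0.30 FPKM with control shRNA and 14.0 ± 0.3 with pLVX. The ratio of RBL1 to RB1 FPKM was 0.783 ± 0.010 in the former and 1.36 ± 0.06 in the latter. Ratios between the lines depend on scaling: TMM factors over all 12 libraries lowered the log2 ratio of labelled Hep3B over HepG2 by 0.32 for RB1, which turned it from 0.14 to -0.18.

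Relative to CDK4 and CDK6, the summed transcripts of CDKN2A, CDKN2B and CDKN2C were scarcer in HepG2, and D-type cyclin transcripts were scarcest with CD146 shRNA. The FPKM of these 3 inhibitors per CDK4 and CDK6 FPKM was 0.528 ± 0.033 with control shRNA, 0.504 ± 0.020 with CD146 shRNA, 0.102 ± 0.006 with pLVX and 0.098 ± 0.009 with CD146. With CDKN2D added to the sum it was 0.548 ± 0.034, 0.517 ± 0.018, 0.155 ± 0.009 and 0.130 ± 0.007. D-type cyclin FPKM per CDK4 and CDK6 FPKM was 0.964 ± 0.015, 0.637 ± 0.040, 0.865 ± 0.016 and 0.788 ± 0.032 in the same order. The ratio of the 3 inhibitors overlapped between the groups of each line, and with CDKN2D it overlapped in the cells labelled Hep3B and was lower with CD146 in HepG2 without overlap. The D-type cyclin ratio did not overlap in either line. In HepG2 the D-type cyclin sum itself overlapped, at 44.4 ± 1.1 FPKM with pLVX and 44.1 ± 0.5 with CD146. The kinase sum did not overlap there, at 51.3 ± 0.4 and 56.1 ± 1.9 FPKM. These are sums of transcript levels, not of proteins, and were not tested, as an exact permutation test of 3 against 3 libraries cannot go below p = 0.1.

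**Figure D3:**
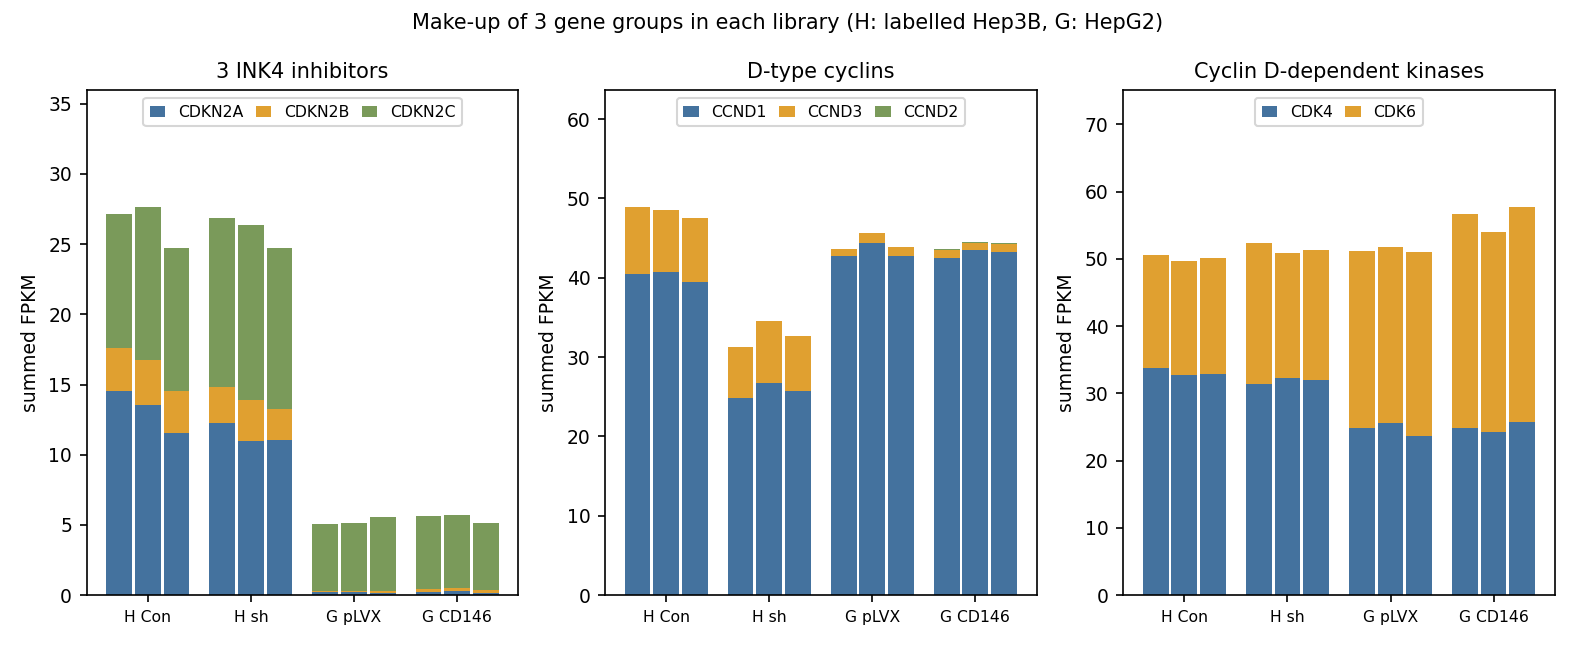
Summed FPKM of 3 INK4 inhibitors (CDKN2A, CDKN2B and CDKN2C), the D-type cyclins and their kinases, as 1 stacked bar per library (H, labelled Hep3B; G, HepG2), coloured by gene. The inhibitor sums lie between 24.7 and 27.7 in the libraries labelled Hep3B and between 5.05 and 5.73 in HepG2, and the D-type cyclin sums of the CD146 shRNA libraries (31.3 to 34.5) are the lowest.

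Lowering CD146 in the cells labelled Hep3B was accompanied by less CCND1 and by more CDK6 and CDKN2C transcript. Of the 10 genes, 9 passed the filter on low counts, and CCND2 did not. By edgeR's quasi-likelihood test with Benjamini-Hochberg adjustment over all genes tested, 2 of the 9 rose and 3 fell. Of all 16968 genes tested, 26.8% rose and 28.5% fell, 55.3% in all, so the count of 5 lies near the background. The median log2 fold change (CD146 shRNA minus control shRNA) was -0.09 for the 9 genes and 0.00 for all genes. In CPM, the groups did not overlap for 5 of the 9, against 59.8% of all genes.

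CCND1 stood at 190, 193 and 186 CPM with control shRNA and at 119, 130 and 125 with CD146 shRNA. All libraries with CD146 shRNA were lower. The log2 fold change was -0.61 (SE 0.04, adjusted p = 5.7e-15), so that its level fell by 34.3%. CCND3 had 47.6, 44.4 and 45.8 CPM with control shRNA and 36.8, 46.1 and 40.4 with CD146 shRNA. These groups overlapped, and the fall (log2 -0.16, SE 0.07, adjusted p = 0.034) was lost without control replicate 1 or 3 or CD146 shRNA replicate 1 or 3 (adjusted p up to 0.331), and by DESeq2 and limma. CCND1 made up 78.6% ± 1.2 of the D-type cyclin FPKM in the CD146 shRNA libraries.

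Among 10 other genes with at least 5 CPM within 1 Mb of CCND1, a window chosen after the data were seen, 7 rose, 1 fell, and none had a lower fold change than CCND1. The median of these 10 log2 fold changes was 0.25. CTTN, the cortactin gene, and PPFIA1, which encodes liprin alpha 1, are known to be gained together with CCND1 in tumours, and they had 0.57 (SE 0.04) and 0.62 (SE 0.05), with adjusted p of 1.1e-14 and 2.8e-14 in the same test. LTO1, whose exons overlap CCND1 on the other strand, had 0.41 (SE 0.07, adjusted p = 6.8e-06). CCND1 thus fell while 7 of these 10 genes rose, where 26.8% of all genes tested rose and 28.5% fell. The cause was not tested.

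CDK6 had 203, 206 and 209 CPM with control shRNA and 257, 232 and 242 with CD146 shRNA. The groups did not overlap, and the log2 fold change was 0.24 (SE 0.04, adjusted p = 7.2e-06). CDK4 had a log2 fold change of -0.02 (95% interval -0.11 to 0.07) and did not pass the test. The share of CDK6 in the CDK4 and CDK6 sum was 38.1% ± 1.9 with CD146 shRNA.

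Within the INK4 family, CDKN2C rose and CDKN2A fell. CDKN2C had 28.2, 32.7 and 30.4 CPM with control shRNA and 36.3, 38.5 and 35.2 with CD146 shRNA, without overlap (log2 0.28, SE 0.07, adjusted p = 6.2e-04). CDKN2A had 55.5, 52.2 and 44.4 CPM with control shRNA and 47.7, 43.7 and 43.9 with CD146 shRNA. Its groups overlapped, and the fall (log2 -0.17, SE 0.07, adjusted p = 0.030) was lost without control replicate 1 or 2 or CD146 shRNA replicate 2 or 3 (adjusted p up to 0.261), and by DESeq2 and limma. CDKN2B had -0.24 (95% interval -0.45 to -0.03), with an adjusted p of 0.053 that did not pass. CDKN2B-AS1 rose over the same groups, from 12.4, 12.4 and 16.2 CPM to 24.5, 22.6 and 26.2 (log2 0.83, SE 0.09, adjusted p = 6.2e-10), and MTAP fell (-0.46, SE 0.05, adjusted p = 5.1e-10).

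The pocket proteins did not pass the test with TMM factors. RB1 had a log2 fold change of -0.09 (95% interval -0.19 to 0.01, adjusted p = 0.139), and with total counts it passed at -0.13 (adjusted p = 0.039). RBL1 had -0.04 (95% interval -0.15 to 0.06, adjusted p = 0.523), while RBL2, their relative outside the 10 genes, fell (-0.28, SE 0.05, adjusted p = 5.8e-06). Without CD146 shRNA replicate 3, the library with the most hepatocyte marker transcripts, CCND1 had -0.61, CDK6 0.25 and CDKN2C 0.30, and all 3 still passed.

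With CD146 raised in HepG2, CDK6 rose and RBL1 fell. Of the 9 genes tested, 1 rose and 1 fell. Of all 15300 genes tested, 9.55% rose and 10.3% fell, 19.8% in all, so this count too lies near the background. The median log2 fold change (CD146 vector minus pLVX) was -0.04 for the 9 genes and 0.00 for all genes. In CPM, the groups did not overlap for 4 of the 9, CCND1, CDK6, CDKN2B and RBL1, against 33.6% of all genes. The FPKM of CCND1 and RBL1 overlapped between the groups, so these separations depend on scaling.

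CDK6 rose from 332, 328 and 343 CPM to 380, 357 and 381, with no overlap (log2 0.16, SE 0.03, edgeR adjusted p = 2.7e-04). RBL1 fell from 85.0, 85.2 and 87.4 CPM to 77.3, 81.6 and 75.1, without overlap in CPM (-0.14, SE 0.05, adjusted p = 0.020). Its FPKM overlapped, at 13.80 to 14.31 with pLVX and 12.94 to 13.96 with CD146. The call of RBL1 was lost without pLVX replicate 3, CD146 replicate 1 or CD146 replicate 3 (adjusted p up to 0.141) and by DESeq2, by limma and when libraries were scaled by total counts (-0.07, adjusted p = 0.294). CCND1 had 210, 216 and 209 CPM with pLVX and 198, 203 and 201 with CD146, a log2 fold change of -0.08 (95% interval -0.15 to -0.01) that missed the threshold at an adjusted p of 0.105.

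CDKN2B had a log2 fold change of 1.07 (95% interval 0.17 to 1.97, adjusted p = 0.094), from 5, 4 and 6 counts to 11, 10 and 14. CCND2, below the filter, went from 3, 3 and 1 counts to 5, 5 and 8. CDKN2B thus missed the threshold, and CCND2 was not tested. CDKN2A (0.03), CDKN2C (-0.04), CCND3 (-0.21), CDK4 (-0.06) and RB1 (0.06) did not pass, and the 95% interval of CDKN2A, from -0.70 to 0.76, was wide. The direction of the calls over all genes in HepG2 depends on scaling. Of 3037 calls with TMM factors 48.1% were higher, and of 3467 with total counts 79.5% were. With total counts in edgeR, CDK6 still rose, RBL1 did not pass and RB1 did (0.14, adjusted p = 0.040).

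**Figure D4:**
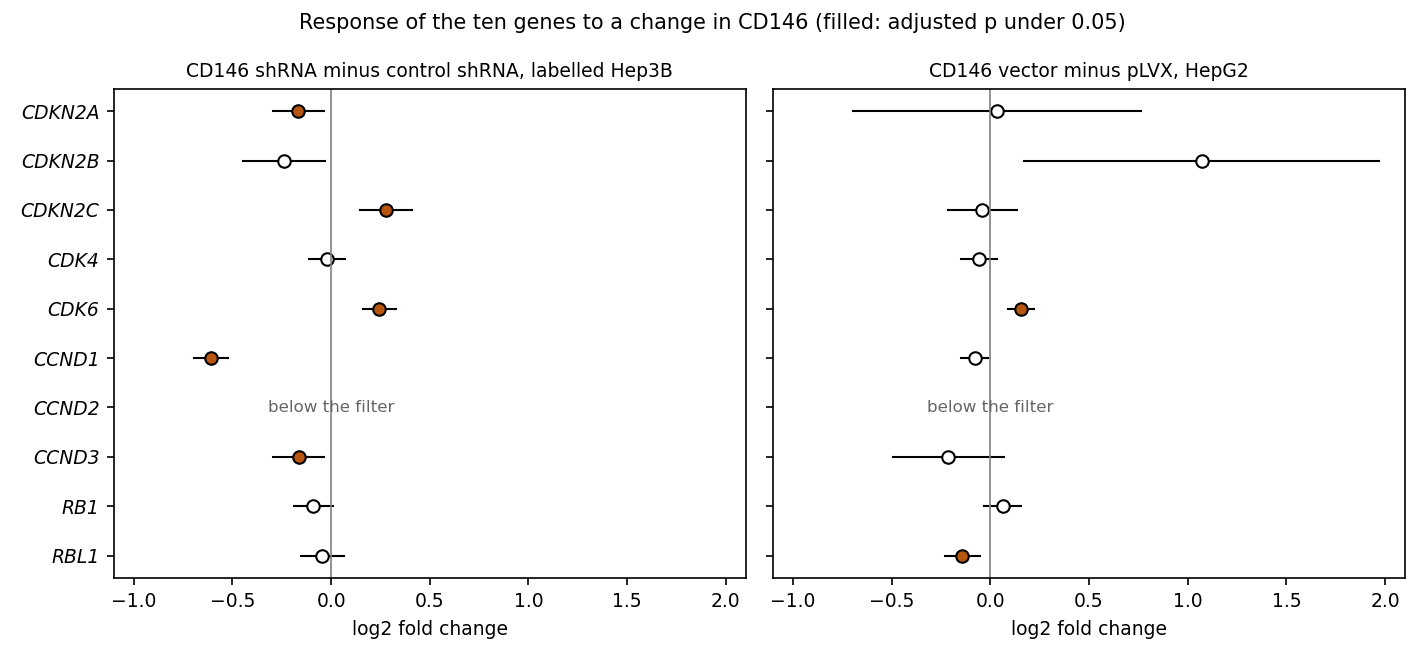
Log2 fold changes of the 9 genes tested (points) with 95% intervals (lines) from edgeR, for CD146 shRNA minus control shRNA (left) and CD146 vector minus pLVX (right); filled points passed an adjusted p of 0.05, and CCND2, below the filter, has no point. CCND1 is lowest on the left at -0.61, and CDK6 is the gene filled and above 0 in both panels.

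The response to higher CD146 was then compared between the lines as the HepG2 effect (CD146 vector minus pLVX) minus the labelled Hep3B effect (control minus CD146 shRNA), in one edgeR fit of 12 libraries. Line and method of perturbation cannot be told apart in this contrast. It was called for 3 of 9 genes, 1 higher and 2 lower, against 36.4% of 18870 genes tested (17.2% higher, 19.2% lower), near the background. CCND1 differed by -0.68 (95% interval -0.79 to -0.57, adjusted p = 7.2e-15), as it was higher with more CD146 in the cells labelled Hep3B and had a small negative value in HepG2. CDK6 differed by 0.40 (95% interval 0.29 to 0.52, adjusted p = 5.3e-08), as it was lower with more CD146 in the former and higher in the latter. RBL1 differed by -0.18 (95% interval -0.32 to -0.04, adjusted p = 0.041), and this call was lost in 14 of 19 alternatives.

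Genes around the 10 were read from fixed lists. The background for each count below is the share of all genes that passed, 26.8% higher and 28.5% lower in the knockdown and 9.55% and 10.3% in HepG2. Of 5 other inhibitors of cyclin-dependent kinases, 2 rose and 1 fell with CD146 shRNA, near the 55.3% of all genes that passed. CDKN1B, which encodes p27, rose from 56.8 ± 1.5 to 85.5 ± 5.9 CPM (SD, n = 3; log2 0.59), CDKN1A, which encodes p21, rose by 0.25, and CDKN1C, which encodes p57, fell by 0.74 on the log2 scale. In HepG2, 4 were tested. CDKN1A rose there from 25.3 ± 1.7 to 43.6 ± 2.0 CPM (log2 0.78, edgeR adjusted p = 1.4e-14), and CDKN2D (-0.66), which encodes p19 of the INK4 family, and CDKN3 (-0.30) fell.

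Of 17 further pocket protein, E2F and DREAM complex genes, 2 rose and 8 fell with CD146 shRNA, with a median of -0.09. E2F4, the main repressor E2F of resting cells, had -0.58, MYBL2, the B-MYB gene, -0.40 and LIN9, of the MuvB core, -0.33, while E2F1, an activator, had 0.31. In HepG2 none rose and 5 fell: MYBL2 (-0.29), E2F8 (-0.27), E2F1 (-0.23), TFDP1 (-0.20) and RBL2 (-0.16). By edgeR, 1 gene was higher at an unadjusted p under 0.05, E2F7 (0.15, adjusted p = 0.115), and DESeq2 and limma called 0 higher. E2F1 thus had opposite signs in the 2 comparisons.

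Of 9 tested genes of the cyclin E, cyclin A and CDK2 module, 2 rose and 6 fell with CD146 shRNA, among them CCNA2 (-0.72), CKS2 (-0.70), CCNE1 (-0.45) and CKS1B (-0.42). CCNE1, CKS1B and CKS2 also fell in HepG2 (-0.23, -0.22 and -0.22), where edgeR, DESeq2 and limma called 0 higher, as did edgeR at an unadjusted p under 0.05, and 1 was higher with total counts. CCNE1 and CCNA2 encode the cyclins that act after cyclin D, and CKS1B and CKS2 are small subunits of their kinases.

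Of 25 E2F target genes of S phase entry, 6 rose and 13 fell with CD146 shRNA (median -0.11). RRM1, the large subunit of ribonucleotide reductase, fell most, from 348 ± 9 to 149 ± 9 CPM (log2 -1.23), followed by MCM2 (-0.66) of the replicative helicase. With CD146 in HepG2, all 25 had negative values by edgeR with TMM factors (median -0.18, lowest -0.28, highest -0.07), 20 fell and 0 rose, for example MCM3 (-0.22), RFC3 (-0.28) and RRM2 (-0.19). This count depends on scaling: 12 fell with total counts and 2 by limma on FPKM. The median absolute log2 fold change of all genes was 0.287 with CD146 shRNA and 0.118 in HepG2.

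Among 15 polycomb and other regulators of the INK4 locus, 3 rose and 8 fell with CD146 shRNA, against 26.8% and 28.5% of all genes. ETS1, an activator of the p16 start, fell by 0.82 on the log2 scale, EED of the polycomb repressive complex 2 by 0.56 and RNF2 of complex 1 by 0.44, while EZH2, the methyltransferase of complex 2, had 0.17. In HepG2, 14 were tested, 4 rose and 1 fell, against 9.55% and 10.3%. KDM6B (0.37), a demethylase of the polycomb mark, and ETS2 (0.33) were among the former, and EZH2 (-0.26) was the gene that fell. CDKN2A passed the test in neither direction there.

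Of 12 transcriptional regulators of D-type cyclins, 4 rose and 6 fell with CD146 shRNA. FOS rose from 9.70 ± 0.42 to 27.7 ± 1.5 CPM (log2 1.51), and JUN, its AP-1 partner, by 0.23. CTNNB1 (-0.52), the beta-catenin gene, FOXO1 (-0.45) and MYC (-0.24) fell. In HepG2, 11 were tested and 3 rose. The count that fell was 0, also at an unadjusted p under 0.05 and by DESeq2 and limma. The 3 that rose were JUN, from 15.1 ± 1.7 to 36.6 ± 2.6 CPM (1.28), FOSL1 (0.62) and STAT3 (0.17). FOS (0.96), NR5A2 (0.29) and FOXO3 (0.12) were higher only at an unadjusted p under 0.05 by edgeR. Chaperones, activators and turnover factors of cyclin D and its kinases (12 genes) had 2 that rose and 3 that fell with CD146 shRNA, and 2 and 2 in HepG2, with medians of 0.00 and 0.01. CUL4A, a ubiquitin ligase scaffold, had the highest value in the former (0.34), and AMBRA1, the adaptor that targets D-type cyclins for degradation, fell by 0.26.

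**Figure D5:**
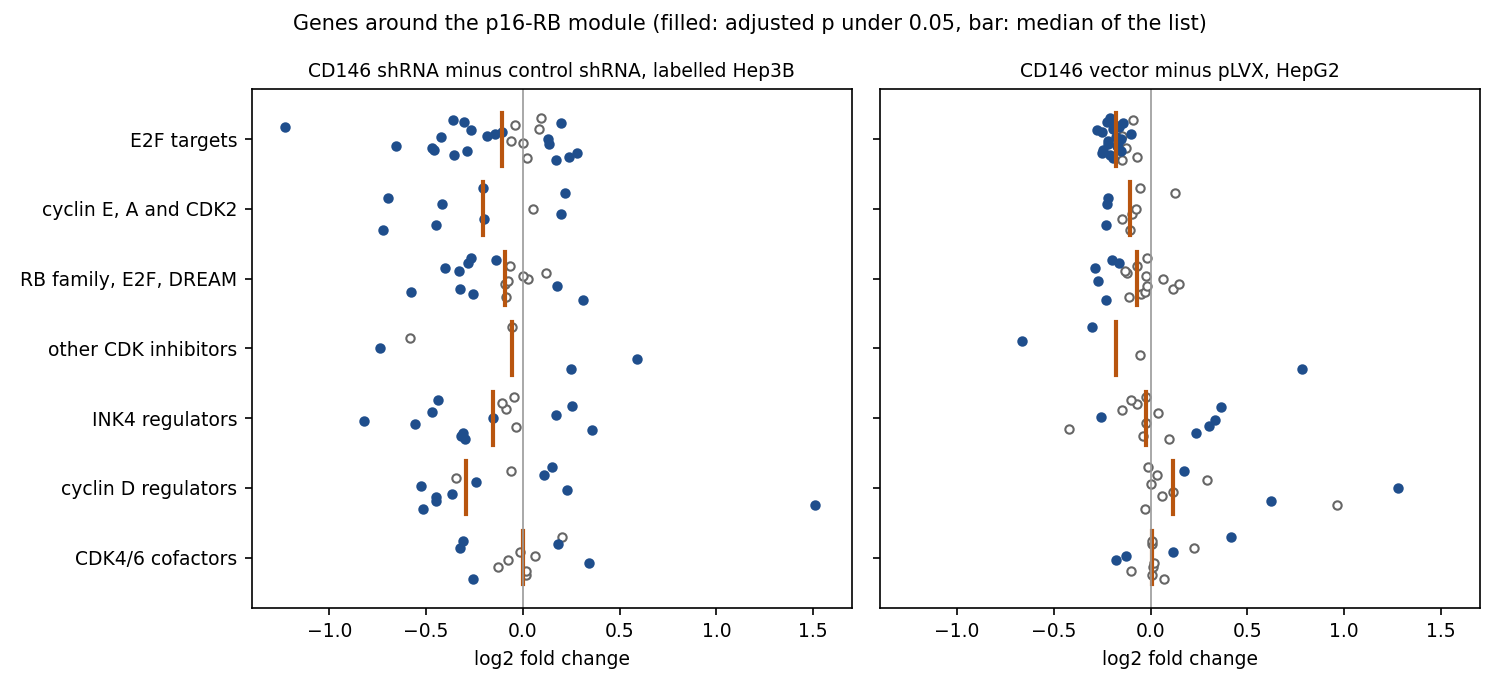
Log2 fold changes of the genes in 7 lists around the p16 and RB module, for CD146 shRNA minus control shRNA (left) and CD146 vector minus pLVX (right); each point is a gene, filled where the adjusted p is under 0.05, and the bar is the median of the tested genes. The E2F targets spread from -1.23 to 0.28 on the left and from -0.28 to -0.07 on the right.

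The genes most like CDKN2A, RB1 and CCND1 over the 12 libraries were found by the root mean square difference of gene-centred log2(CPM + 1). CPM was scaled here with TMM factors over all 12 libraries. The 10668 candidates were protein-coding genes with at least 5 CPM in 1 group. Those with clone-based, noncoding, antisense or pseudogene-like names were left out. HES7 (0.109), TRPS1 (0.112) and ELFN2 (0.137) were nearest to CDKN2A, and MSL1 (0.046), PARS2 (0.049) and PPP2R5E (0.050) to RB1. MRPS35 (0.055) and BIRC5 (0.058) were near to CCND1. BIRC5, the survivin gene, had 28.7, 18.4, 31.3 and 29.4 mean FPKM with control shRNA, CD146 shRNA, pLVX and CD146.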

How the data were processed

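Poly(A) RNA of 12 libraries was sequenced, per the labels' protocols. Raw counts per gene and FPKM were deposited by the authors. Tools named in the submitters' processing notes are HISAT2 2.2.1, HTSeq 0.6.1 and cutadapt 1.9.1. Genome build, annotation and strandedness of counting are not given in the sources used here. Totals were 12772991 to 18129816 counts per library, and 3 counts were worth 0.165 to 0.235 CPM, a floor that covers counting error only. No 2 replicates agreed within sampling noise (chi-square at least 1.74 per gene). Positions are from GENCODE 29 (GRCh38). Exons of 7 of the 10 genes overlap another gene.

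Each line was fitted alone with edgeR 4.0.16 (R 4.3.3; TMM, filterByExpr, quasi-likelihood test, 2-sided, Benjamini-Hochberg adjustment), and "rose" or "fell" means an adjusted p under 0.05. The code was tested on simulated data. CPM is TMM-scaled within a line, unless TMM over all 12 libraries is stated. FPKM serves for levels across genes and lines. Alternatives were RLE factors, total counts, no filter, DESeq2 1.42.0, limma 3.58.1 on log2(FPKM + 1) and log2(FPKM + 0.1), a replicate block, all libraries in one fit, and leaving out each library. All 10 genes, all neighbours of CDKN2A with values, and up to 4 genes per list and comparison (smallest adjusted p, at least 5 CPM) were to be named. E2F1 and JUN in the knockdown, E2F7, E2F8 and CDKN2D in HepG2, EZH2 in the knockdown, ALB and the genes around CCND1 were named after their values were seen. Some genes that the rule names are not reported here. The members and lists were chosen with earlier results of these data known.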

Additional observations from a re-analysis of the deposited data

Results flagged for a closer look

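The response to higher CD146 differed between HepG2 and the libraries labelled Hep3B for 3 of the 9 genes tested. This was the contrast of both effects in edgeR's quasi-likelihood test of 12 libraries. The count lies near the background, as 36.4% of all 18870 genes tested were called. CCND1 differed by -0.68 on the log2 scale (adjusted p = 7.2e-15, called in 19 of 19 alternatives), CDK6 by 0.40 (adjusted p = 5.3e-08, 19 of 19) and RBL1 by -0.18 (adjusted p = 0.041, 5 of 19). Over the alternatives the difference of CCND1 ranged from -0.71 to -0.63 and that of CDK6 from 0.36 to 0.44. Line, vector and direction of the CD146 change cannot be told apart in this comparison.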

How the results depend on the processing

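CCND1, CDK6 and CDKN2C in the knockdown and CDK6 in HepG2 passed the test in all 14 alternatives. The count of genes called in the knockdown, 5, was 3 with DESeq2, 3 with limma on log2(FPKM + 1), 3 with limma on log2(FPKM + 0.1), and 3 to 5 when 1 library was left out. In HepG2 the count of 2 was 1 with DESeq2, 1 with limma on log2(FPKM + 1), 1 with limma on log2(FPKM + 0.1), and 1 to 2 when 1 library was left out. Of all genes in HepG2, 3037 were called, and 1614 with DESeq2, 1718 with limma on log2(FPKM + 1) and 1688 with limma on log2(FPKM + 0.1). The cause was not tested.

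Signs that turned belong to values that did not pass, near 0 except for CDKN2B. In HepG2, CDKN2C was 0.031 with total counts and 0.028 and 0.033 with limma on log2(FPKM + 1) and log2(FPKM + 0.1), and CDK4 was 0.0136, 0.0126 and 0.0131. The difference between the lines was 0.0096, 0.0119 and 0.0128 for RB1 in the same order, and -0.086 for CDKN2B with limma on log2(FPKM + 1), against 0.84 by edgeR. The log2 ratio of RB1 between the lines was -0.18 with TMM over 12 libraries, chosen after seeing the data. When 1 library was left out, CDK4 ranged from -0.032 to 0.0059 and DMRTA1 from -0.19 to 0.070 in the knockdown, and CDKN2A from -0.17 to 0.27 and CDKN2C from -0.067 to 0.0077 in HepG2. The difference between the lines ranged from -0.33 to 0.105 for CDKN2A and from -0.053 to 0.0166 for RB1.

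No strong pairing by the replicate numbers in the titles was seen. Deviations of same-numbered libraries correlated between -0.0083 and 0.051, and those of unlike number between -0.045 and 0.033. Such values cannot tell whether libraries were prepared in pairs. With the replicate block, 6 of the 9 genes tested were called in the knockdown, 2 in HepG2 and 2 in the difference. CDKN2B was gained in the first and RBL1 lost in the last. Over all genes tested, 9543 of 16968, 2947 of 15300 and 6847 of 18870 were called, against 9385, 3037 and 6866 without the block. Depth limits CDKN2A, CDKN2B and CCND2 in HepG2, with at most 15 counts per library.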
